A study of Mus musculus with 8 samples.

Results

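MicroRNA genes were examined in small blood vessels (microvessels) of the mouse brain after experimental stroke. Members were all genes that the authors' deposited table gives the biotype miRNA together with both a log2 fold change and a p-value, which held for 148 of the 2207 microRNA genes listed and of 19294 genes of any kind with both values. The 8 libraries of total RNA came from wild-type C57BL6 mice and formed 2 groups, 4 from tMCAO mice, in which the middle cerebral artery is blocked for a time to model stroke, and 4 from sham-operated mice. The sources used here do not give how long the artery was blocked, when the vessels were taken, the age of the mice or whether each library is a separate mouse. The p-values therefore measure only how far these libraries spread, which may be technical. The deposited values describe the whole comparison, so levels per library and sequencing depth were not analysed here. The column header names no numerator, and a positive value was taken to mean higher after tMCAO, since injury genes such as the neutrophil genes Trem1 and S100a8 carried large positive values (3.87 and 2.92 by the authors' deposited table), whose own direction is therefore no independent evidence.

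MicroRNAs are short RNAs that pair with messenger RNAs, mostly through a seed near their 5′ end, and lower the output of the messages they bind. They are cut from longer transcripts by Drosha in the nucleus and by Dicer in the cytoplasm, and many lie in introns of protein-coding genes or in long noncoding RNA genes, here called host genes. In the brain, some are typical of neurons or oligodendrocytes and others of endothelial cells. The genes measured here are the annotated hairpin precursors, and total RNA reads over them can come from the precursor or from the host transcript, so a value below is not the level of the mature microRNA.

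The sequences below are those of the genes that passed the test and whose arm was found in the RefSeq table for GRCm38.p6 (118 of 148 members matched by symbol), with the seed, bases 2 to 8, in capitals. They are shown because an identical mature sequence at several loci bears on which gene a short read can be assigned to. The seed is marked as the part that mostly does the pairing with messages. A single arm is shown per gene, picked by name and not by level. It need not be the arm that does most of the pairing.
miR-132-3p: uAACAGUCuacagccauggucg
miR-212-3p: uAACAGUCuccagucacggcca
miR-9-5p: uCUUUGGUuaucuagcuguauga
miR-128-3p: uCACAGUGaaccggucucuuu
miR-219a-5p: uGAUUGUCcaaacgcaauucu
miR-335-5p: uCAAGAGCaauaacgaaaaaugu
miR-186-5p: cAAAGAAUucuccuuuugggcu
miR-744-5p: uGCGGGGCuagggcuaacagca
miR-421-5p: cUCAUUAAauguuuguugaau
miR-541-5p: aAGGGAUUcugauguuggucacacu
miR-1188-5p: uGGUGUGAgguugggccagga
miR-23a-3p: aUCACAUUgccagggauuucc
miR-5125: uCUGCCUGggauuuccuugu
miR-703: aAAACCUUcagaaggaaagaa
Of these, miR-132-3p and miR-212-3p have the same seed. The sequence of miR-9-5p is found at 3 loci, and those of miR-128-3p and miR-219a-5p at 2 loci each, so reads of the mature forms of these 3 cannot be told apart by locus.

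MicroRNA genes that passed the test were mostly lower after tMCAO. Of 148 members, 15 passed an adjusted p under 0.05 (10.1%), beside 32.8% of all genes tested. There were 12 lower (8.11%, beside 17.6% of all genes) and 3 higher (2.03%, beside 15.2% of all genes). The log2 fold changes of the members by the authors' deposited table ran from -1.54 (Mir132) to 1.30 (Mir703), with a median of -0.18, beside -0.0008 for all tested genes, and 107 members lay below 0 and 41 above. A size of 1 or more on the log2 scale together with the call was found in 6 members (beside 9.72% of all genes), the 4 lower genes Mir132, Mir212, Mir219a-2 and Mir744 (beside 4.94%) and the 2 higher genes Mir703 and Mir23a (beside 4.78%). The weakest calls by the authors' deposited table were Mir128-1 (adjusted p = 0.0444) and Mir219a-2 (adjusted p = 0.0433), and the nearest gene not called was Mir544 (-0.54, adjusted p = 0.0633). At an adjusted p under 0.01, 6 members were called, beside 21.9% of all genes, and at one under 0.1, 20 members, beside 40% of all genes. With the deposited p-value read as unadjusted the count was 6, beside 22.4%, and with Holm's adjustment it was 0, beside 4.84%, while 23 members had a recovered unadjusted p under 0.05. With values centred on protein-coding genes 16 members were called, beside 33.4%. A further 824 microRNA genes have a fold change and no p-value, and their values ran from -1.03 to 1.54 with a median of 0.003 by the authors' deposited table. Member values were less precise than most: the standard error (SE) implied by the deposited fold change and p-value had a median of 0.35 on the log2 scale, against 0.22 for all tested genes and 0.19 for protein-coding genes. The 95% intervals given with single genes come from these errors and are not adjusted for the number of genes, so an interval can leave out 0 in a gene that was not called. The median of lincRNA genes, at -0.19 with 19.1% called, and that of snoRNA genes, at -0.10 with 14.1% called, were also below 0.

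**Figure D1:**
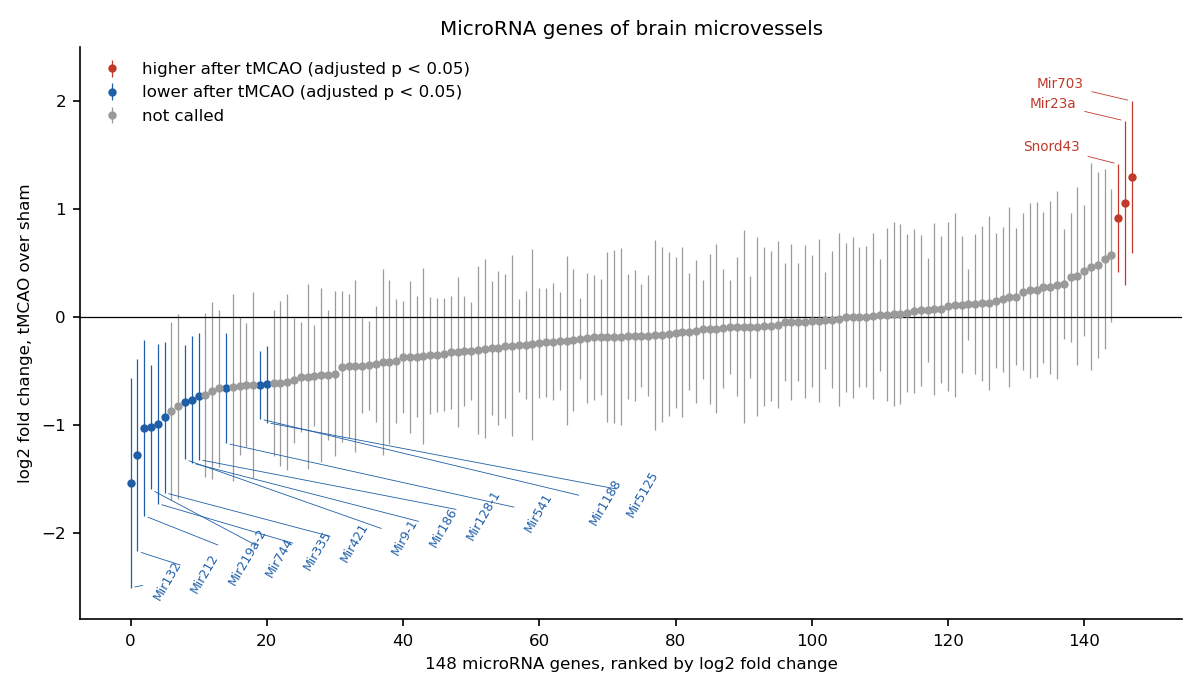
Log2 fold change (tMCAO over sham, authors' deposited table) of the 148 microRNA genes in rank order, with bars for the 95% interval from the implied standard error. The 12 genes called lower, in blue and with Mir132 at -1.54 as the lowest, and the 3 called higher, in red and with Mir703 at 1.30 as the highest, are named, and the remaining 133 genes in grey were not called.

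The lowest values belonged to the neighbours Mir132 and Mir212, which are known to be induced in neurons by activity and the transcription factor CREB. Mir132 (chr11:75173682-75173747, plus strand, GRCm38) was 2.91-fold lower after tMCAO by the authors' deposited table (log2 change -1.54, implied SE 0.49, adjusted p = 0.0088). Mir212 (chr11:75173388-75173478) was 2.43-fold lower by the authors' deposited table (log2 change -1.28, implied SE 0.45, adjusted p = 0.0185). Both lie 204 bases apart in an intron of the noncoding gene 1700016P03Rik, which holds no other annotated microRNA gene. That host was 4.62-fold lower by the authors' deposited table (log2 change -2.21, implied SE 0.32, adjusted p = 1.42e-09), the lowest value among the hosts. The host value lay within the 95% interval of Mir132 (-2.51 to -0.57) and just outside that of Mir212 (-2.17 to -0.39). The 2 hairpins are given with the 3′ arm in capitals, since this pair carries the largest fall and its arms share the seed.
Mir132: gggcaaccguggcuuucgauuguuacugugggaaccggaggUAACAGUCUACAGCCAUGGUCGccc
Mir212: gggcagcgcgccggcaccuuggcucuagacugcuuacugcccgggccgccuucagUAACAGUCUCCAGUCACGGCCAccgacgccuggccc

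Among 13 tested microRNA genes of a neural list, 3 fell (23.1%, beside 17.6% of all genes) and none rose (beside 15.2% of all genes). Of the 13 values 12 lay below 0 (median -0.46), beside 107 of the 148 members as a whole (median -0.18). Mir9-1 (chr3:88215598-88215686), one of the 3 loci of miR-9, a regulator of neural progenitors, had a log2 change of -0.79 by the authors' deposited table (implied SE 0.27, adjusted p = 0.015). It lies in an intron of the lincRNA gene Gm3764, which also fell, with a log2 change of -0.69 by the authors' deposited table (adjusted p = 0.0030). Mir3093, in the same intronic cluster, had a log2 change of -0.59 and an adjusted p of 0.11 by the authors' deposited table. The 3 values differed from each other by less than the standard error of either member.

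Mir128-1 (chr1:128202361-128202430), a locus of the neuron-rich miR-128, had a log2 change of -0.73 by the authors' deposited table (adjusted p = 0.044). Its host R3hdm1, a gene with an RNA-binding R3H domain, stood at -0.54 (adjusted p = 0.012) by the authors' deposited table. Mir219a-2 (chr2:29845631-29845727, minus strand), a locus of miR-219, which promotes the maturation of oligodendrocytes, had a log2 change of -1.03 (implied SE 0.42, adjusted p = 0.043) by the authors' deposited table and no annotated host. Of the members not called, Mir138-1 had -0.72 (adjusted p = 0.14), Mir384 -0.54 (adjusted p = 0.17) and Mir7b -0.46 (adjusted p = 0.31) by the authors' deposited table. These intervals all included 0, while reaching -1.48 for Mir138-1, -1.14 for Mir384 and -1.12 for Mir7b. Mir338, which lies in an intron of the kinase gene Aatk and is known from oligodendrocytes, had a log2 change of -0.09 (95% interval -0.74 to 0.55) by the authors' deposited table, whereas Aatk itself fell, at -0.84 (adjusted p = 0.0022).

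Markers of other cell types moved in the same libraries, where 15.2% of all genes were called higher and 17.6% lower. Neuron markers fell in 5 of 5 genes (Syt1, Gad1, Slc17a7, Snap25 and Rbfox3; log2 fold changes from -1.50 to -0.76 by the authors' deposited table, median -1.14), and the oligodendrocyte markers Mog at -1.37, Mag at -0.79 and Mbp at -0.47 fell as well. Microglia markers fell in 3 of 4 (median -1.54). Neutrophil markers rose in 4 of 5 (median 2.92), among them Trem1 and S100a8, which set the sign and so are no independent evidence. Endothelial markers rose in 5 of 8 (median 0.63). Erythroid markers passed in 0 of 5 (0 at a recovered unadjusted p under 0.05), with a range from 0.01 to 0.26 by the authors' deposited table. Astrocyte markers rose in 1 of 4 (Gfap) and mural markers fell in 1 of 5 (Cspg4). All 8 endothelial markers had values, but levels were not analysed here, so the label microvessel was not checked by level, and the part of these markers in the microRNA values was not tested. In such bulk samples, fewer cells of a type and less RNA per cell cannot be told apart.

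Further falls were found in introns of protein-coding genes. Mir744 (chr11:65734733-65734832, minus strand) was 2.03-fold lower after tMCAO by the authors' deposited table (implied SE 0.29 on the log2 scale, adjusted p = 0.0033). Its host Map2k4, a stress kinase gene upstream of JNK, was not called, with a log2 change of -0.32 (adjusted p = 0.12), beside -1.02 for Mir744, by the authors' deposited table. Mir335 (chr6:30741299-30741396) had a log2 change of -0.99 (adjusted p = 0.030) and its imprinted host Mest one of -0.51 (adjusted p = 0.079) by the authors' deposited table. Mir186 (chr3:157544279-157544349) and its host Zranb2, an RNA-binding protein gene, both fell, at -0.77 (adjusted p = 0.035) and -0.42 (adjusted p = 0.027) by the authors' deposited table. Mir5125 (chr17:23823291-23823369) and its host Srrm2, a splicing factor gene, both fell as well, at -0.63 (adjusted p = 0.0031) and -0.26 (adjusted p = 0.042) by the authors' deposited table. In these 4 pairs the member's value was the lower one, but the pairs were picked because their members were called lower. Over all 86 pairs with values the median was -0.20 for members and -0.26 for hosts, counted once per pair.

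The X-linked pair Mir421 and Mir374b lies in an intron of Ftx, a long noncoding RNA gene of the X-inactivation centre. Mir421 (chrX:103572921-103572996, minus strand) fell, with a log2 change of -0.93 (implied SE 0.36, adjusted p = 0.030) by the authors' deposited table. Mir374b had -0.36 (adjusted p = 0.33) and Ftx -0.36 (adjusted p = 0.049) by the authors' deposited table. The neighbours thus had the same sign, and only Mir421 of the pair passed.

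Mir23a was the one microRNA gene of the vascular list that rose. It forms a cluster with Mir27a and Mir24-2, known to act in endothelial cells and vessel growth, and its hairpin (chr8:84208518-84208592) lies in no annotated host. It was 2.08-fold higher after tMCAO by the authors' deposited table (log2 change 1.06, implied SE 0.39, 95% interval 0.30 to 1.81, adjusted p = 0.024). Mir27a at 0.52 and Mir24-2 at 0.17 have a deposited log2 fold change and no p-value by the authors' deposited table. The paralogous cluster on chromosome 13 did not pass: Mir23b had a log2 change of -0.32, Mir27b one of -0.20 and Mir24-1 one of -0.32 by the authors' deposited table, with adjusted p from 0.31 to 0.44. Their host 2010111I01Rik was at -0.11 (adjusted p = 0.52) by the authors' deposited table. The 95% intervals of Mir23a (0.30 to 1.81) and Mir23b (-0.77 to 0.14) did not overlap. The difference was not tested, and Mir23a was picked for it because it was called. The hairpins are given because they share a run of 20 bases, in capitals, that covers most of the 3′ arm, so that short reads of that arm can match both.
Mir23a: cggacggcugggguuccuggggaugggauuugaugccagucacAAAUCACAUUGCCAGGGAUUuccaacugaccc
Mir23b: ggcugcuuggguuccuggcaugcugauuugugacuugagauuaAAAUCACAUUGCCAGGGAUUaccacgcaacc

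Of 23 vascular genes on the list, 13 have a fold change and 5 a p-value, so that 1 of 5 rose (20%, beside 15.2% of all genes). Beside Mir23a, these were Mir145a, a smooth muscle microRNA gene, at 0.24 (95% interval -0.56 to 1.05), Mir221 at -0.18 (-0.78 to 0.43), Mir100 at -0.27 (-0.94 to 0.39) and Mirlet7e at 0.00 (-0.65 to 0.65) on the log2 scale of the authors' deposited table. None of these 4 was called, and each interval holds changes in either direction. Mir126a, the best known endothelial microRNA gene, has no deposited fold change. Its host Egfl7 rose, with a log2 change of 1.04 by the authors' deposited table (adjusted p = 0.0013).

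The other genes that rose were Mir703 and Snord43. Mir703 (chr5:98475556-98475664, minus strand) was 2.46-fold higher after tMCAO by the authors' deposited table (log2 change 1.30, implied SE 0.36, adjusted p = 0.0020). It has no same-strand host and lies opposite Cfap299. Snord43 (chr15:80082847-80082954, minus strand) bears the name of a small nucleolar RNA but carries the biotype miRNA, and it was 1.89-fold higher (log2 change 0.92, adjusted p = 0.0022) by the authors' deposited table. It lies in an intron of the ribosomal protein gene Rpl3, which rose as well, at 0.69 (adjusted p = 0.0066) by the authors' deposited table. Of the members, 126 have names starting Mir, 21 starting Gm, and Snord43 neither.

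Mir132 and Mir212 also stand on the inflammation and hypoxia list. Of its 21 genes, 14 have a fold change and 3 a p-value, the third being Mir29a at 0.00 (95% interval -0.65 to 0.65) by the authors' deposited table. Of the 6 microRNA genes of blood cells that were listed, 4 have a fold change and none a p-value.

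The let-7 family, which restrains growth and is abundant in differentiated tissue, was not called in any of 8 tested members, beside 10.1% of all members and 32.8% of all genes. Their log2 fold changes by the authors' deposited table ran from -0.19 (Mirlet7a-1) to 0.43 (Mirlet7a-2), with 4 above and 4 below 0 and a median of -0.05. The 5′ arms are given because 7 of the 8 genes, on 5 chromosomes, share the seed in capitals in the RefSeq table. For the other gene, Mirlet7a-2, no 5′ arm was matched there, so its seed was not compared.
let-7a-5p: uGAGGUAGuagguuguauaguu
let-7b-5p: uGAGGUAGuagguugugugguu
let-7c-5p: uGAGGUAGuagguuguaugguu
let-7e-5p: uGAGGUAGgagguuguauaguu
let-7f-5p: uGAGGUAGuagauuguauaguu
let-7g-5p: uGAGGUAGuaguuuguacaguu
The smallest adjusted p among the 8 was 0.296 (Mirlet7a-2), none had a recovered unadjusted p under 0.05, and the implied standard errors had a median of 0.32. Growth-related clusters as a list had 7 tested members, let-7 genes and Mir15a, with none called, beside the same 10.1% of members and 32.8% of all genes, and none had a recovered unadjusted p under 0.05. On a metabolic list, 2 of 5 tested members fell, Mir335 and Mir186 (40%, beside 8.11% of all members and 17.6% of all genes), while Mir30a at -0.68, Mir30b at -0.61 and Mir26b at -0.09 by the authors' deposited table were not called.

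Of the 148 members, 46 lie in the imprinted Dlk1-Dio3 domain of chromosome 12, where the maternal chromosome makes the long noncoding RNAs Meg3, Rian and Mirg and a large set of microRNAs, many of them known from neurons. The values of the authors' deposited table lay below 0 for 40 of the 46, with a median of -0.20 and a range from -0.66 (Mir370) to 0.23 (Mir540). Of these, 2 fell (4.35%, beside 17.6% of all genes) and none rose. Outside the domain 67 of 102 members lay below 0, with a median of -0.17 and 12.7% called, so the median of the domain was close to that of the other members.

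The long RNA genes of the domain were measured more precisely. Meg3 was 1.62-fold lower (log2 change -0.70, implied SE 0.19, adjusted p = 0.0020) and Rian 1.64-fold lower (log2 change -0.72, implied SE 0.20, adjusted p = 0.0021) by the authors' deposited table. Mirg had a log2 change of -0.37 (adjusted p = 0.15) by the authors' deposited table. The 4 tested microRNA genes inside Rian lay between -0.66 and -0.26 (median -0.54), and Mir1188 (chr12:109611822-109611941), which fell with a log2 change of -0.63 (adjusted p = 0.00088), had the smallest adjusted p of any member by the authors' deposited table. Inside Mirg, the 6 tested genes lay between -0.66 and -0.17 (median -0.36), and Mir541 (chr12:109742409-109742498) fell, at -0.66 (adjusted p = 0.038) by the authors' deposited table. The other 36 genes of the domain, in no annotated host, had a median of -0.14, and none was called (3 had a recovered unadjusted p under 0.05).

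Neighbouring protein-coding genes of the domain moved in both directions. Dlk1 fell, at -1.15 (adjusted p = 0.0040), and Dio3 fell, at -1.04 (adjusted p = 0.039), by the authors' deposited table. Rtl1, a retrotransposon-derived gene of the paternal chromosome, was 2.44-fold higher (log2 change 1.29, adjusted p = 0.022) by the authors' deposited table. On the strand opposite Rtl1 lie 6 members, Mir431, Mir433, Mir127, Mir434, Mir432 and Mir136, whose values ran from -0.60 to 0.12 with a median of -0.20 by the authors' deposited table. Whether reads were counted by strand is not given in the sources used here, so reads of Rtl1 and of these 6 genes cannot be told apart with certainty.

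**Figure D2:**
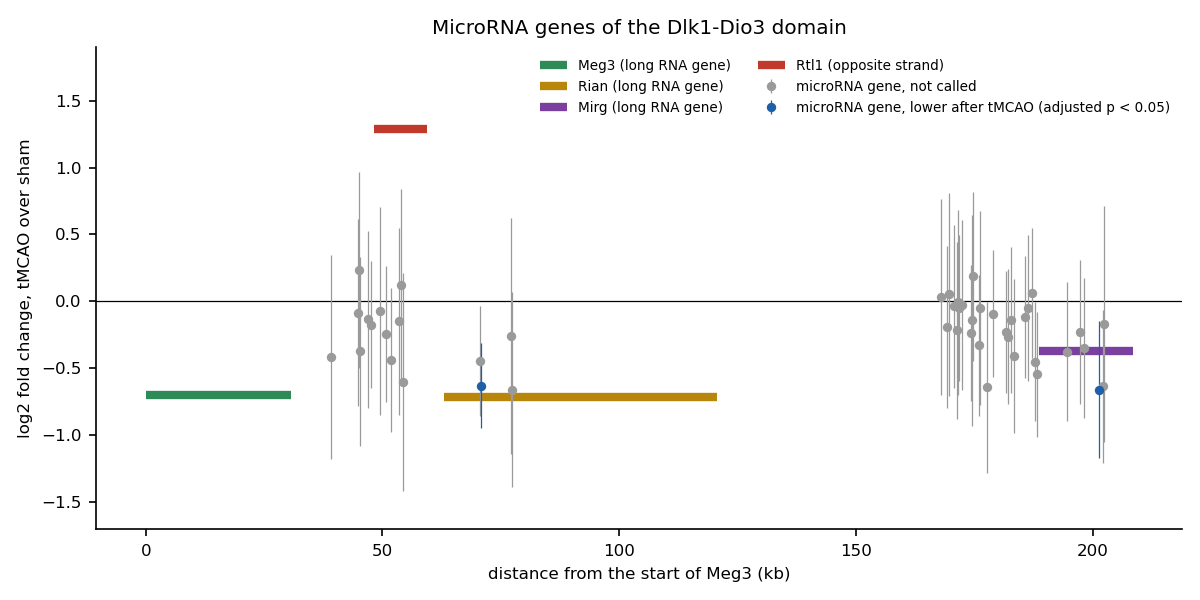
Log2 fold change (tMCAO over sham, authors' deposited table) of the 46 microRNA genes between Dlk1 and Dio3 against the distance from the start of Meg3 in kb, with 95% intervals from the implied SE and the spans of 4 longer genes as horizontal bars. Mir1188 and Mir541, in blue, were called lower, Meg3 and Rian lie near -0.70, and Rtl1 on the opposite strand lies at 1.29.

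Same-strand hosts were annotated for 92 members, of which 82 lie in an intron and 10 overlap an exon of the host. Within introns 12 of 82 members were called (14.6%), and without a host 3 of 56 (5.36%), beside 32.8% of all genes. The 10 that overlap an exon included none called, among them Mir24-1, Mir27b and 4 let-7 genes. For 86 pairs, with 70 different hosts, both genes have values by the authors' deposited table. Hosts had a median log2 fold change of -0.21, with 54 of 70 below 0, and 30 of the 70 were called (42.9%, beside 32.8% of all genes).

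Member and host had the same sign in 64 of 86 pairs (74.4%), where 61 members and 69 hosts lay below 0. With most values on both sides below 0, a shared sign is common even without a link within pairs. Pearson's r across the 86 pairs was 0.55, and 0.47 across the 70 hosts with their members averaged. The points share libraries, and several members share a host. Without Mir132 and Mir212, a choice made after seeing the data, r was 0.39 across pairs and 0.35 across hosts. In 9 pairs both genes were called, all in the same direction. In 28 pairs only the host was called, and 21 of those members had the host's sign. In 3 pairs only the member was called, namely Mir744 with Map2k4, Mir335 with Mest and Mir541 with Mirg.

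**Figure D3:**
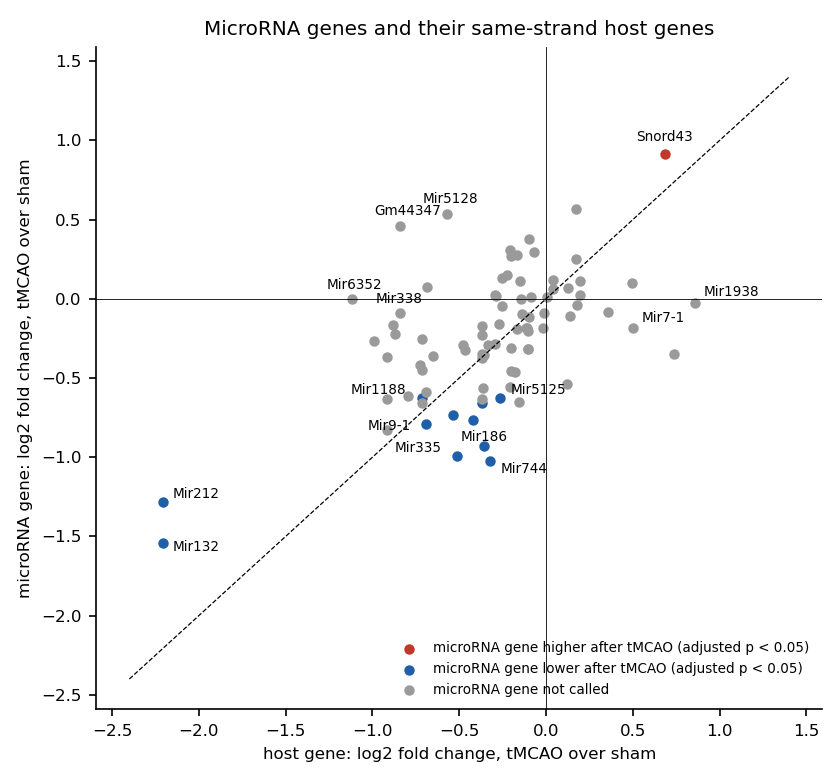
Log2 fold change (tMCAO over sham, authors' deposited table) of 86 microRNA genes on the vertical axis against that of their same-strand host genes on the horizontal axis, with equal values on the dashed line. Mir132 and Mir212 share the host at -2.21, most called members lie in the lower left, and Mir5128 and Gm44347 lie above 0 over hosts that fell.

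In 12 pairs the host value lay outside the member's own 95% interval. Among them were the called members Mir744 (-1.60 to -0.44, host -0.32) and Mir5125 (-0.98 to -0.27, host -0.26), which fell further than their hosts. Mir212, also called, fell less than its host. The deposited fold changes may be shrunken, so these intervals may not be exact, and the part of shrinkage in such differences was not tested. Mir6352 was at 0.00 (95% interval -0.75 to 0.74) while its host Epha4, an ephrin receptor gene of axon guidance, fell, at -1.12 by the authors' deposited table. Mir1938 was at -0.02 while Ifrd1 rose, at 0.86 by the authors' deposited table. Mir7-1, a neural microRNA gene, was at -0.19 while its host Hnrnpk, an abundant RNA-binding protein gene, rose, at 0.50 by the authors' deposited table. Member and host had opposite signs for Mir5128 at 0.54 and Strbp at -0.57, and for Gm24270 at -0.35 and Peak1 at 0.74, by the authors' deposited table. Differences between member and host were not tested, since their errors in shared libraries are not independent. In the other 74 of 86 pairs the host value lay within the member's interval. Examples, picked after their values were seen, are Mir6982 at -0.63 and Mir7220 at -0.37 by the authors' deposited table. Both lie in introns of the neuronal kinase gene Camk2a (-0.92, adjusted p = 4.6e-05 by the authors' deposited table). The interval of Mir7220 (-0.93 to 0.19) held the Camk2a value only just.

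Of the host transcripts named for microRNAs, Mir17hg, Mir22hg, Mir124-2hg, Mir124a-1hg and Mir9-3hg passed the test, as did 32.8% of all genes. None of the microRNA genes that these hosts hold has a p-value. Not called were Mirg at -0.37, Mir99ahg at 0.04 and Mir670hg at -0.07 (adjusted p = 0.87) by the authors' deposited table. Mir670hg holds Mir129-2 of the neural list. Mir17hg, the host of the growth-promoting cluster of 6 genes from Mir17 to Mir92-1, was 1.79-fold higher after tMCAO by the authors' deposited table (log2 change 0.84, adjusted p = 0.0019). Mir22hg was 1.51-fold higher (adjusted p = 0.0036) by the authors' deposited table. Hosts of the neuronal microRNA miR-124 fell, with log2 fold changes of -0.81 for Mir124-2hg (adjusted p = 0.0030) and -0.69 for Mir124a-1hg (adjusted p = 0.0065) by the authors' deposited table. Mir9-3hg, the host of another miR-9 locus, fell by 0.62 on the log2 scale (adjusted p = 0.013) by the authors' deposited table, beside -0.69 for Gm3764, the host of Mir9-1. Mir142hg, the host of a microRNA of blood cells, had 0.66 (adjusted p = 0.13) by the authors' deposited table. Mir155hg, the host of the inflammatory miR-155, is listed there at 1.71 with no p-value.

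Genes that make, use and remove microRNAs were called in both directions. Of 36 tested genes on the list, 5 rose and 6 fell (30.6%, beside 32.8% of all genes), with a median log2 fold change of 0.01 by the authors' deposited table. The largest rise was that of Ran, the GTPase that drives nuclear export of precursors and of many other cargoes, 1.89-fold higher (log2 change 0.92, implied SE 0.18, adjusted p = 1.62e-05) by the authors' deposited table. Zc3h12a, an RNase that cuts inflammatory messages and some precursors, rose by 0.81 (adjusted p = 0.0062), and the silencing-complex nuclease Snd1 by 0.49 (adjusted p = 0.00012), on the log2 scale of the authors' deposited table. The nuclear exonuclease gene Xrn2 and the precursor-binding protein gene Khsrp rose by 0.28 and 0.24 by the authors' deposited table.

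The falls, 16.7% of the list beside 17.6% of all genes, included some silencing factors, while the silencing-complex nuclease gene Snd1 rose. Ago4, an Argonaute gene, had a log2 change of -0.46 (implied SE 0.12, adjusted p = 0.00087) by the authors' deposited table. All of the TNRC6 scaffold genes fell, with Tnrc6b at -0.30, Tnrc6c at -0.28 and Tnrc6a at -0.20 by the authors' deposited table. Ago1 at -0.20, Ago3 at -0.19, Ddx6 at -0.19, Mov10 at 0.22 and Cnot1 at 0.09 were not called there. Ddx17, a helicase of the nuclear processing complex, was at -0.34 (adjusted p = 2.3e-05) and Drosha at -0.21 (adjusted p = 0.045) by the authors' deposited table. Not called were Dicer1 at 0.07 (95% interval -0.06 to 0.21), Dgcr8 at -0.07 (-0.22 to 0.09), Xpo5 at 0.15 (0.00 to 0.29) and Ago2 at 0.16 (-0.04 to 0.36) on the log2 scale of the authors' deposited table. These intervals hold changes of at most 0.36 in size.

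**Figure D4:**
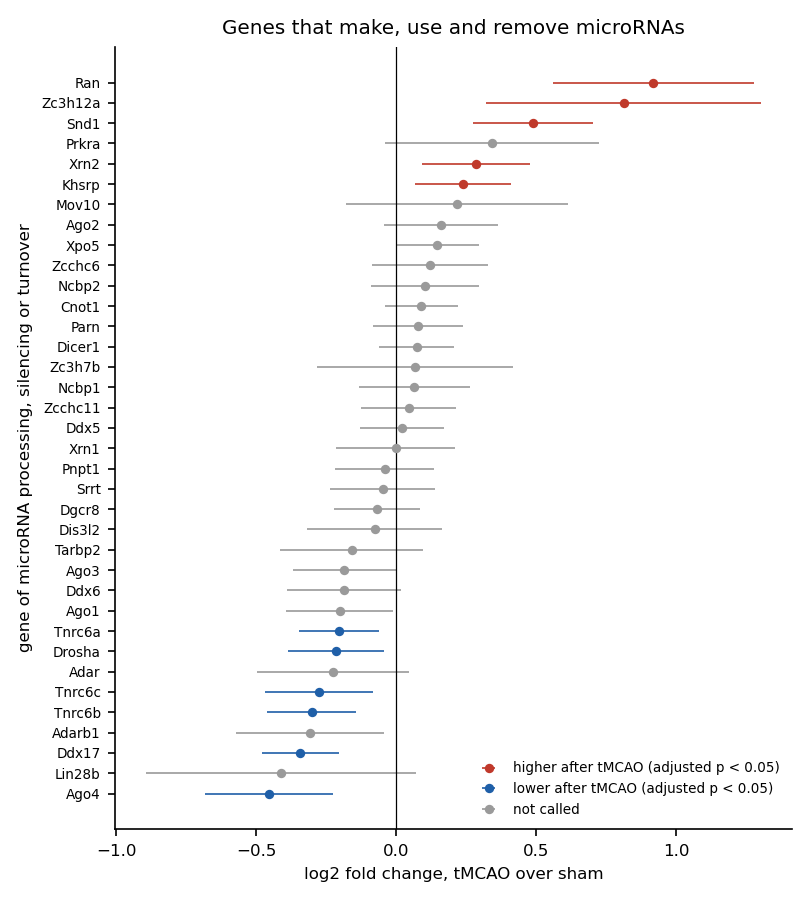
Log2 fold change (tMCAO over sham, authors' deposited table) of 36 genes of microRNA processing, silencing and turnover, with bars for the 95% interval from the implied standard error. Ran at 0.92 and Zc3h12a at 0.81 are the highest, Ago4 at -0.46 is the lowest, and Dicer1 and Dgcr8 lie near 0.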

How the data were processed

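Total RNA of 4 tMCAO and 4 sham libraries was depleted of ribosomal RNA and sequenced, per the labels' protocols. Tools named without roles in the submitters' processing notes are STAR, HTSeq, DESeq2, cutadapt and bcl2fastq 2.19, with GRCm38 (mm10) as the build. The deposited values, per the file headers, are a log2 fold change and a p-value per gene from the authors' comparison; 0 columns hold values per library, so depth is unknown. The authors' p-value was taken to be adjusted by Benjamini and Hochberg's method, since 3214 distinct p-values each occur in genes with differing fold changes. Of 972 microRNA genes with a fold change, 824 have no p-value, with no reason stated, and 135 of those have a fold change found in 10 or more of them. The fold changes may be shrunken, which these repeats cannot show and which was not tested. Any shrinkage would also bear on the sizes, medians and implied standard errors given here. Unadjusted p-values were recovered from ranks (Python, numpy 2.4.6, scipy 1.17.1) and gave implied standard errors, which assume a normal scale; the step was tested on simulated data. Hosts are genes that contain a member on its strand in GENCODE M21 (GRCm38), protein-coding first, then the shortest; all 148 member identifiers matched, and all 109 RefSeq hairpins had the annotated start and end. Named genes are all called members, members of the role lists, their hosts and called machinery genes; others were chosen after their values were seen. The members and lists were chosen with earlier results of these data known. Settings tried were other thresholds, a size minimum, other readings of the p-value, other centres and other host rules. One oligodendrocyte marker is not reported here.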

Additional observations from a re-analysis of the deposited data

How the results depend on the processing

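The 15 calls among microRNA genes became 6 at an adjusted p under 0.01, 6 with the deposited p-value read as unadjusted and adjusted over all genes, 6 with a size minimum of 1 on the log2 scale, and 0 with Holm's adjustment (the recovered unadjusted p was under 0.05 for 23 members). In members with no host there were 3 calls among 56. Centring on all tested genes gave 15 calls, centring on protein-coding genes 16 and a threshold of 0.1 gave 20. At 0.01 and with the p-value read as unadjusted, Mir1188, Mir703, Snord43, Mir5125, Mir744 and Mir132 stayed called, and the 9 others did not. Machinery calls went from 11 to 6 at 0.01, 6 with the p-value read as unadjusted, 2 with Holm's adjustment and 0 with the size minimum. Over all genes 6332 calls became 4220 at 0.01, 934 with Holm's adjustment and 1876 with the size minimum. The median over all 972 microRNA genes with a fold change was -0.04, beside -0.18 over members. Signs shared by member and host were 74.4% of pairs, 64.9% with hosts on either strand and 100% of 8 pairs with hosts named for microRNAs. Those 8 pairs rest on only 2 hosts, Mirg and Mir99ahg, neither of which was called, so they are not independent. Whether called microRNA genes keep their direction was not open to test under these settings. The thresholds and readings of the p-value keep the deposited fold change. Centring subtracted only -0.0008 (all tested genes) or 0.046 (protein-coding genes), less than the size of any called value. No paired analysis was possible because the groups share no replicate number and no values per library were analysed; leaving out libraries and DESeq2 or edgeR fits were not run for the same reason. Depth is unknown here, and the implied standard errors set what could be detected.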
